A study of Mus musculus with 4 samples.

Results

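The carriers, enzymes and receptors of vitamin A handling described in sciatic nerve RNA are 9 genes, chosen by symbol from the 50593 genes of 1 expression table: Rbp4, Stra6, Crabp1, Crabp2, Aldh1a1, Aldh1a2, Aldh1a3, Rara and Rarb. All 9 were found, each once. The sample labels list 2 HSF V30M TTR mice and 2 HSF WT TTR mice of strain 129S1/SvImJ, all 6 months old. HSF V30M mice carry a human TTR V30M transgene, lack the endogenous mouse Ttr and are heterozygous for a deletion of the heat shock factor gene Hsf1. HSF WT mice are also heterozygous for the Hsf1 deletion and carry no transgene, so both groups share that allele. The promoter that drives the transgene is not given in the sources used here. The comparison addresses how the nerve transcriptome of this model of hereditary TTR amyloidosis differs from that of its control.

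Vitamin A travels in blood as retinol bound to RBP4, and RBP4 in turn is held in the circulation by transthyretin (TTR), the protein that is mutated in this model. STRA6 is a membrane receptor that takes retinol from RBP4 into cells. Inside the cell, retinol is oxidised to retinal and then, by the ALDH1A enzymes, to retinoic acid, which the CRABP proteins bind and which activates the nuclear receptors RARA, RARB and RARG together with RXR partners. CYP26 enzymes break retinoic acid down. In peripheral nerve, retinoic acid signalling is known from studies of axon growth and of Schwann cell responses to injury.

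The table holds 1 value per gene and group, given as FPKM (fragments scaled to transcript length and library depth), and none for a single mouse. No spread between mice can therefore be given, no test was run, and every difference is between 2 group estimates with no replicate check. In nerve labelled HSF V30M, where mouse Ttr should be null, its FPKM was 6.10, and nerve labelled HSF WT has it at 0. The table does not tell reads of the human transgene from reads of mouse Ttr, so Ttr does not check the labels, and every direction below is that of the groups as labelled. Hsf1, heterozygous in both groups by design, was at 7.94 in HSF V30M nerve against 15.0 in HSF WT nerve. On FPKM + 1 Hsf1 was 1.78-fold lower in HSF V30M, past the 1.5-fold limit used below. Whether the groups differ in Hsf1 dose was not tested. Low values came in steps of the FPKM that a lone fragment gives, with 2 step sizes in each group, which placed the libraries 1.18-fold apart in depth in HSF V30M and 1.35-fold apart in HSF WT. From these steps and transcript lengths, the number of fragments behind each value is given as a range. The 95% interval of a log2 ratio without pseudocount comes from an exact Clopper-Pearson binomial interval at the fewest fragments, and it covers counting error only, not the difference between mice.

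A gene was counted as past the fold where the ratio of FPKM + 1 was at least 1.5 in either direction, among genes whose mean FPKM reached 1. Of the 9 retinoid genes, all of which reach that mean, 5 were higher in HSF V30M past this fold (Stra6, Crabp2, Aldh1a1, Aldh1a2 and Rara), 1 was lower (Rbp4) and 3 lay within it (Crabp1, Aldh1a3 and Rarb). Across all 15620 genes with this mean, 16.7% were past the fold, 8.22% higher and 8.44% lower. Among the protein-coding ones, 10.3% were past it. At a fold of 2, Stra6, Crabp2 and Aldh1a2 remained higher and Rbp4 lower, 4 of the 9, beside 7.92% of all genes, 3.98% higher and 3.94% lower. The median log2 ratio of FPKM + 1 was 0.79 over the 9 genes and 0.00 over all 15620. The 2 highest genes held 43.6% of the summed FPKM in HSF V30M against 28.9% in HSF WT. Scaling the FPKM to equal sums without the 10 highest genes moved the median of all genes by -0.26 on the log2 scale of FPKM + 1. Aldh1a1 (0.50) and Rara (0.51) then lay within the fold, leaving 3 higher and 1 lower. The share of all genes past the fold was not counted under this scaling.

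**Figure D1:**
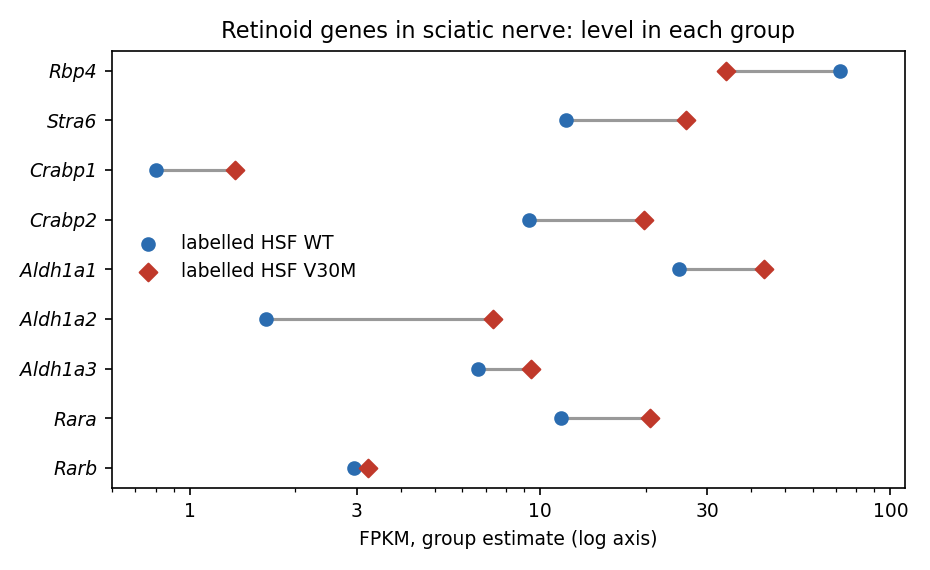
Level of each of the 9 retinoid genes in the group labelled HSF WT (blue circles) and the group labelled HSF V30M (red diamonds), as FPKM on a log axis; each symbol is 1 group estimate and has no error bar because no value per mouse was used. Rbp4 lies at 71.6 in HSF WT and 33.9 in HSF V30M, while the other 8 genes lie to the right in HSF V30M, Rarb by the least and on the other side of 0 after scaling to equal sums.

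Rbp4, the carrier of retinol in blood, was the only 1 of the 9 genes that was lower in HSF V30M past the fold. Its FPKM was 33.9 in HSF V30M nerve against 71.6 in HSF WT nerve, which stand for some 542 to 833 and 814 to 1433 fragments. This is 2.11-fold lower in HSF V30M, and the log2 ratio without pseudocount was -1.08, with a counting interval from -1.24 to -0.92. Rbp4 (ENSMUSG00000024990) is annotated on the minus strand of chromosome 19 of GRCm38 from 38116629 to 38125281. In these bulk samples, fewer cells of a type and less RNA per cell cannot be told apart.

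Rbp4 is known to be made by liver and fat, and markers of fat cells were present in both groups. Of 9 adipocyte markers, 7 had a log2 ratio of FPKM + 1 below 0, 2 of them past the fold (Adipoq and Lep). Of all genes, 7744 of 15620 were below 0 and 8.44% lower past the fold. The summed FPKM of the 9 markers was 2142 in HSF V30M nerve against 2801 in HSF WT nerve. The adipokine gene Adipoq was at 319 in HSF V30M nerve against 543 in HSF WT nerve, and the leptin gene Lep at 7.47 and 33.4. Taken per unit of each marker's FPKM, Rbp4 was lower in HSF V30M for 8 of the 9 markers. Relative to Adipoq it was 0.106 in HSF V30M nerve against 0.132 in HSF WT nerve, and relative to Plin1, which encodes a lipid droplet protein, it was 0.196 and 0.341. Lep was the exception, with 4.54 in HSF V30M nerve against 2.15 in HSF WT nerve. Of 7 hepatocyte markers, 5 were under the minimum mean, among them Apoa1 at 0.200 and 0.213. Alb, at 1.76 and 3.82, was lower in HSF V30M past the fold, and Cyp2e1, at 131 and 144, lay within it. The part of fat or liver RNA in the value of Rbp4 was not tested.

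Stra6, the gene of the RBP4 receptor, moved the other way. Its FPKM was 26.2 in HSF V30M nerve against 11.9 in HSF WT nerve, which stand for about 1433 to 1925 fragments and 462 to 711. Stra6 was thus 2.20-fold higher in HSF V30M, with a log2 ratio without pseudocount of 1.14 and a counting interval from 0.99 to 1.29. With the carrier lower and the receptor higher, the FPKM of Rbp4 was 6.03 times that of Stra6 in HSF WT and 1.30 times in HSF V30M. Stra6 (ENSMUSG00000032327) lies on the plus strand of chromosome 9 from 58063788 to 58153996 and overlaps Ccdc33 on the opposite strand. Ccdc33 was under 1 in both groups, at 0.940 in HSF V30M nerve against 0.890 in HSF WT nerve.

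Of the 2 cellular retinoic acid binding proteins, Crabp2 was higher in HSF V30M past the fold and Crabp1 lay within it. Crabp2 (ENSMUSG00000004885, chromosome 3, 87948666 to 87953376), whose protein is known to hand retinoic acid to its nuclear receptors, had an FPKM of 19.8 in HSF V30M nerve against 9.32 in HSF WT nerve, some 314 to 370 and 105 to 142 fragments. The difference was 2.12-fold, with a log2 ratio without pseudocount of 1.09 and a counting interval from 0.76 to 1.42. Crabp1 (ENSMUSG00000032291, chromosome 9, 54764748 to 54773110), whose protein is described as keeping retinoic acid in the cytosol, was at 1.35 and 0.802. These values stand for about 18 to 21 fragments in HSF V30M nerve against 7 to 10 in HSF WT nerve, so the counting interval of the log2 ratio without pseudocount ran from -0.58 to 2.25 and a difference in Crabp1 was not detectable at this depth. The FPKM of Crabp2 was 14.7 times that of Crabp1 in HSF V30M and 11.6 times in HSF WT. No run of 50 bases of either longest complete transcript occurs in a transcript of another annotated gene.

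The 3 enzymes that make retinoic acid from retinal, Aldh1a1, Aldh1a2 and Aldh1a3, differed in their ratios: Aldh1a1 and Aldh1a2 were higher in HSF V30M past the fold, Aldh1a1 not so after scaling to equal sums, and Aldh1a3 lay within it. Aldh1a2 showed the largest ratio of the 9 genes. Its FPKM was 7.32 in HSF V30M nerve against 1.65 in HSF WT nerve, some 328 to 386 and 53 to 71 fragments. That is 4.43-fold higher in HSF V30M without a pseudocount and 3.14-fold on FPKM + 1, and the log2 ratio without pseudocount was 2.15, with a counting interval from 1.72 to 2.59. Aldh1a2 (ENSMUSG00000013584), the main enzyme of retinoic acid synthesis in the embryo, has 1 complete coding transcript in GENCODE M21 and lies on the plus strand of chromosome 9 from 71215789 to 71296243.

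Aldh1a1 (ENSMUSG00000053279, chromosome 19, 20492715 to 20643465) was the most highly expressed of the enzymes, at 43.7 in HSF V30M nerve against 24.8 in HSF WT nerve. It was 1.76-fold higher in HSF V30M, with a log2 ratio without pseudocount of 0.81 and a counting interval from 0.69 to 0.94. Its transcript is 89.0% identical over 2042 aligned bases to that of the neighbouring gene Aldh1a7, and 6.54% of its runs of 50 bases also occur there, so part of the reads could have been shared between them. Aldh1a7 itself was at 3.31 in HSF V30M nerve against 3.20 in HSF WT nerve. Aldh1a3 (ENSMUSG00000015134, chromosome 7, 66390890 to 66427517) stood at 9.41 in HSF V30M nerve against 6.64 in HSF WT nerve, a 1.42-fold difference that stayed within the fold. Its log2 ratio without pseudocount was 0.50, with a counting interval from 0.13 to 0.89.

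Summed over the 3 enzymes, the FPKM was 60.4 in HSF V30M nerve against 33.1 in HSF WT nerve. Aldh1a1 made up 72.3% of this sum in HSF V30M nerve against 75.0% in HSF WT nerve. The share of Aldh1a2 was 12.1% in HSF V30M nerve against 4.99% in HSF WT nerve, and that of Aldh1a3 was 15.6% and 20.03%.

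**Figure D2:**
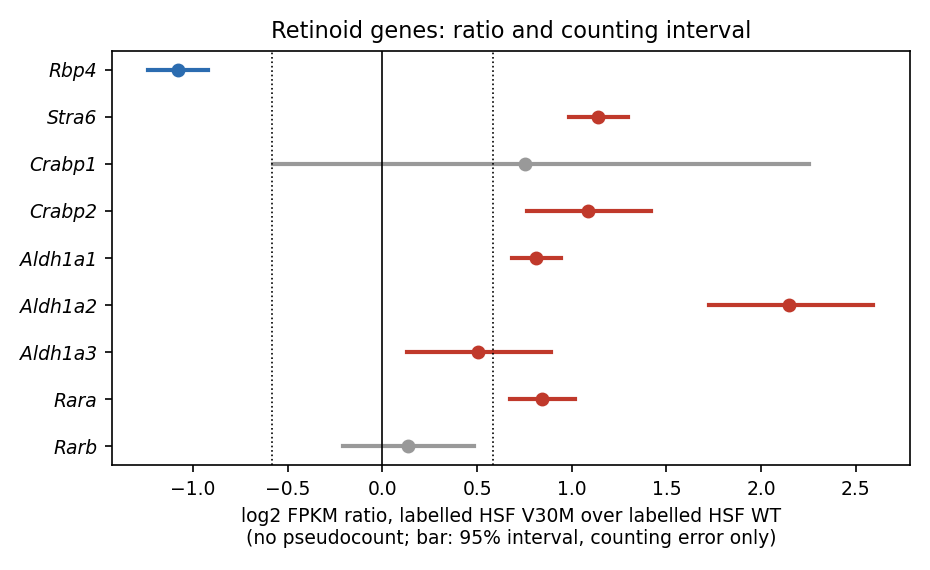
Log2 FPKM ratio of HSF V30M over HSF WT, groups as labelled and without pseudocount, for each retinoid gene (points), with its 95% counting interval (bars); dotted lines mark a 1.5-fold ratio, red and blue mark intervals above and below 0, and grey marks intervals that include 0. Crabp1, with 7 to 10 fragments in HSF WT, has the widest interval, and the intervals of Crabp1 and Rarb include 0. Calls in the text use FPKM + 1. Crabp1 therefore lies past the dotted line here, at 0.75, but within the fold on FPKM + 1, at 0.38.

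Of the nuclear receptors, Rara (ENSMUSG00000037992, chromosome 11, 98927818 to 98974942) was at 20.6 in HSF V30M nerve against 11.5 in HSF WT nerve. It was 1.79-fold higher in HSF V30M, with a log2 ratio without pseudocount of 0.84 and a counting interval from 0.67 to 1.02. Rarb (ENSMUSG00000017491) was at 3.23 in HSF V30M nerve against 2.94 in HSF WT nerve, some 179 to 240 and 116 to 178 fragments. Its counting interval, from -0.21 to 0.49 on the log2 scale without pseudocount, includes 0, and its log2 ratio of FPKM + 1 turned from 0.10 to -0.12 after scaling to equal sums. Rarg, the receptor that is not among the 9 genes, had the highest level of the RAR genes, with an FPKM of 42.6 in HSF V30M nerve against 36.5 in HSF WT nerve.

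The value of Rarb carries a further limit. In GENCODE M21, 34.1% of the exonic bases of Rarb (chromosome 14, minus strand, 16430839 to 16819156) are also exonic in Top2b on the opposite strand, and 54.1% of the runs of 50 bases of its longest complete transcript occur in Top2b, read on either strand. Whether the libraries kept strand is not given in the sources used here. Top2b, which encodes a DNA topoisomerase, was at 12.3 in HSF V30M nerve against 12.7 in HSF WT nerve.

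Rarb is also the textbook target of its own ligand, through a direct repeat of the receptor's binding hexamer with a spacing of 5 bases in its promoter. The RefSeq promoter windows of GRCm38.p6, from 250 bases before to 50 after each start site, were searched on both strands for direct repeats of the hexamer AGGTCA, or of its variants AGTTCA with T in place of the second G of the pair, GGGTCA with G in place of the leading A and GGTTCA with both, in any pairing, with a spacing of 1, 2 or 5 bases. Of the 9 genes, 7 had at least 1 window, 15 windows in all, and Crabp2 and Aldh1a3 had none. Rarb was the 1 member with a match, at a spacing of 5, from 53 to 37 bases before the start site. Of all 32851 windows, 0.0974% hold a repeat with that spacing and 0.588% one with any of the 3 spacings. Among the further pathway and response genes described below, matches were found for Cyp26a1, at a spacing of 5, and for Bco1, at a spacing of 1. The windows around the matches of Rarb (chr14:16575493-16575549, minus strand) and Cyp26a1 (chr19:37697756-37697812, plus strand) are shown because both are classical retinoic acid targets, with the hexamers in capitals; those of Cyp26a1 read in the opposite direction.
Rarb: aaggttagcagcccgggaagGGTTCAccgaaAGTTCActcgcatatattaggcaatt
Cyp26a1: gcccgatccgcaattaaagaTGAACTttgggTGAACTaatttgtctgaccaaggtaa
Beside these sequences stand the Rarb values given above and an FPKM of Cyp26a1 of 0.02 in HSF V30M nerve against 0.0717 in HSF WT nerve, 1 and 2 fragments. At 3 fragments Cyp26a1 would have been at 0.0869 in HSF V30M nerve against 0.122 in HSF WT nerve, so no difference was detectable. For Stra6, Aldh1a1, Aldh1a2, Rara, Rbp4 and Crabp1, these letters do not occur in the windows searched.

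Ordered by level in HSF WT, the 9 genes ran from Rbp4 and Aldh1a1 through Stra6, Rara, Crabp2, Aldh1a3, Rarb and Aldh1a2 to Crabp1. In HSF V30M, Aldh1a1 took the first place from Rbp4, and Aldh1a2 moved above Rarb, while the other 5 kept their places. Stra6 and Rara, next to each other at 11.9 and 11.5 in HSF WT, stood at 26.2 and 20.6 in HSF V30M. With 1 value per group, no spread is at hand to separate such neighbours.

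**Figure D3:**
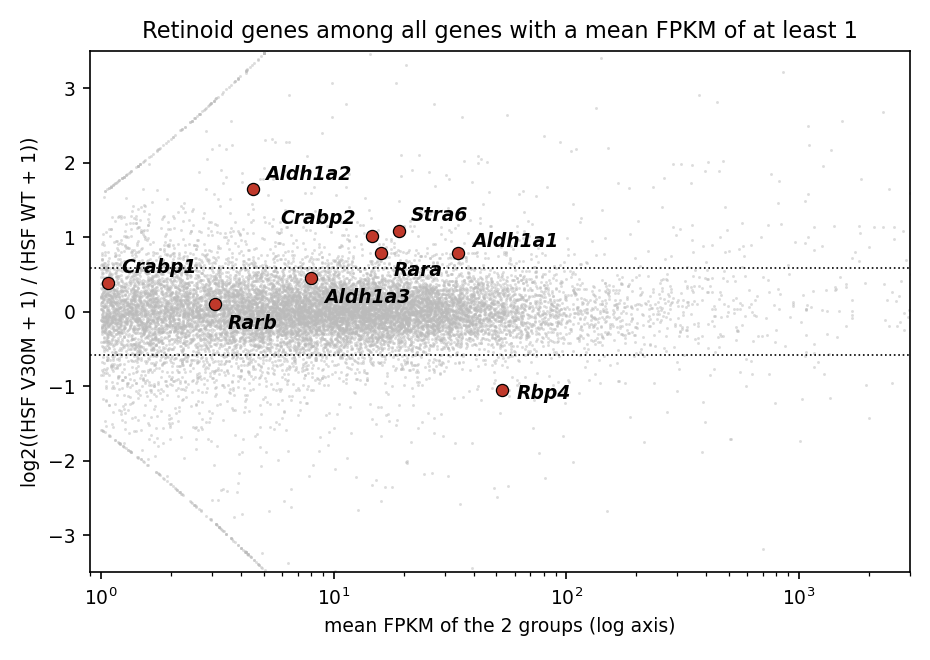
Log2 ratio of FPKM + 1 (HSF V30M over HSF WT, groups as labelled) against the mean FPKM of both groups on a log axis, for the genes whose mean reached 1 (grey; 361 of 15620 lie outside the axes) and the 9 retinoid genes (red); dotted lines mark the 1.5-fold limits. Stra6, Crabp2, Aldh1a1, Aldh1a2 and Rara lie above the upper line and Rbp4 below the lower one.

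The further genes of the pathway, 52 genes of retinoid uptake, binding, storage, oxidation, breakdown and reception, were counted by the same rule. Of these, 34 reached a mean FPKM of 1. Among them 3 were higher in HSF V30M past the fold, 1 was lower and 30 lay within it, and the median log2 ratio of FPKM + 1 was -0.02. The higher ones include Ttr, the gene in which the groups differ by design, so its call is no result about the pathway. The background shares for the same rule are the 8.22% higher and 8.44% lower given above, and 10.3% in either direction among protein-coding genes. With the FPKM scaled to equal sums as above, the split turned to 2 higher (Ttr and Cyp26b1) and 5 lower (Cd36, Ncoa1, Dhrs3, Adh5 and Rdh5). That scaling moved the median of all genes by -0.26, and the share of all genes past the fold was not counted under it.

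The higher pathway genes were Cyp26b1, Rdh11 and Ttr. Cyp26b1, which breaks down retinoic acid, was at 15.4 in HSF V30M nerve against 7.35 in HSF WT nerve, 2.09-fold higher, with a counting interval of the log2 ratio without pseudocount from 0.77 to 1.36. Rdh11, a retinal reductase, was at 12.8 and 7.59, with an interval from 0.49 to 1.01. For Ttr, the 6.10 of HSF V30M stands for about 130 to 154 fragments, and 3 fragments would have given 0.197 in HSF WT. The lower gene was Cd36, a fatty acid transporter that also takes up carotenoids, at 61.0 in HSF V30M nerve against 130 in HSF WT nerve, with an interval from -1.16 to -1.03. CD36 is abundant in fat cells and in muscle. Lower past the fold were 2 of 9 adipocyte and 6 of 6 skeletal muscle markers, beside 8.44% of all genes. Of 7 endothelial markers, none was lower past it and 1 was higher. The part of these or other cell types in the value of Cd36 was not tested. Lpl, a lipoprotein lipase gene and the highest of the uptake genes, was within the fold at 142 and 165.

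The retinoid X receptors, the partners of the RAR proteins, stayed within the fold. Rxra was at 28.5 in HSF V30M nerve against 24.0 in HSF WT nerve, Rxrb at 18.7 and 20.8, and Rxrg at 18.7 and 16.2. All 11 receptors and cofactors of the list lay within the fold, Ncoa1 not so after scaling to equal sums, with log2 ratios of FPKM + 1 from -0.47 for the coactivator gene Ncoa1 to 0.58 for Ppard, a nuclear receptor that can also bind retinoic acid. The corepressor gene Ncor1 had the highest level among them, at 95.7 and 114. Of the retinol and retinal oxidoreductases that reached the mean, in either direction of the reaction, 10 of 11 were within the fold. All 3 binding protein genes that reached the mean were too. Among all genes with this mean, 16.7% were past the fold, and among the protein-coding ones 10.3%. Rdh10, the main retinol dehydrogenase of retinoic acid synthesis, was at 3.06 in HSF V30M nerve against 3.11 in HSF WT nerve. Of the binding protein genes, Fabp5, known for carrying fatty acids, was highest at 25.3 and 29.0. Dhrs3, which returns retinal to retinol, was at 72.7 and 91.4. All 4 storage and hydrolysis genes at this mean or above were within the fold, with Pnpla2, a lipase, highest at 182 and 211.

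Genes known to respond to retinoic acid gave a further view. Of 23 such genes, 7 of which also stand in the pathway list, 13 reached a mean FPKM of 1. Cyp26b1 was higher past the fold, none was lower, and 12 lay within it, beside the 8.22% higher and 8.44% lower of all genes. Among protein-coding genes, 10.3% were past the fold in either direction. The median log2 ratio of FPKM + 1 of the 13 genes was 0.03, with values from -0.33 for Dhrs3 to 0.97 for Cyp26b1. The response list holds none of the retinoid carriers, enzymes and receptors described first. Its count and median therefore leave out Rarb, named above as a classical retinoic acid target, which lay within the fold. They also leave out Stra6 and Crabp2, which were higher past the fold. Whether Stra6 and Crabp2 respond to retinoic acid in this nerve was not tested. Tgm2, which encodes a transglutaminase, was at 76.6 in HSF V30M nerve against 66.0 in HSF WT nerve, Rarres2, the gene of chemerin, at 190 and 212, and the receptor gene Ret at 3.91 and 2.81.

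Markers of other cell types differed between the groups beside the retinoid genes, and their part in these values was not tested. The labelled tissue was borne out by its Schwann cell markers, 13 of 13 at a mean FPKM of 1 or above, whose summed FPKM was 12774 in HSF V30M nerve against 11187 in HSF WT nerve. Of these, 8 had a log2 ratio of FPKM + 1 above 0, as did 7876 of all 15620 genes, and S100b (328 and 201) and Cdh2 (13.3 and 7.84) were higher past the fold. Perineurial markers, of the sheath around nerve fascicles, were above 0 in 5 of 6, with sums of 556 in HSF V30M nerve against 462 in HSF WT nerve, and Tenm2 (42.2 and 26.4) was past the fold. Endothelial markers were above 0 in 4 of 7, with sums of 241 and 194, and Cldn5 (100.15 and 57.9) was past it.

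Fibroblast markers were below 0 in 6 of 9, with sums of 2365 in HSF V30M nerve against 2516 in HSF WT nerve. Among these, Pi16 (42.4 and 83.0) and Dpt (33.7 and 64.7), both known from fibroblasts of the outer connective tissue, were lower past the fold. All 6 skeletal muscle markers were lower past it, with sums of 38.01 in HSF V30M nerve against 124 in HSF WT nerve. So were all 3 B cell markers that reached the minimum mean, beside 8.44% of all genes. The other, Ms4a1, was at 0.02 and 0.807, and the sums over all 4 were 1.79 and 18.4. All 5 neutrophil markers and 3 of 4 erythrocyte markers were higher past the fold, beside 8.22% of all genes. The neutrophil sums were 101 and 24.7 and the erythrocyte sums 137 and 45.2. Macrophage markers were below 0 in 4 of 6, with sums of 88.3 and 114, and Cd68 (15.5 and 30.9) was past the fold. Below 0 were 7744 of all 15620 genes. The 4 keratinocyte markers were under the minimum mean, with Krt1 at 0 in both groups.

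**Figure D4:**
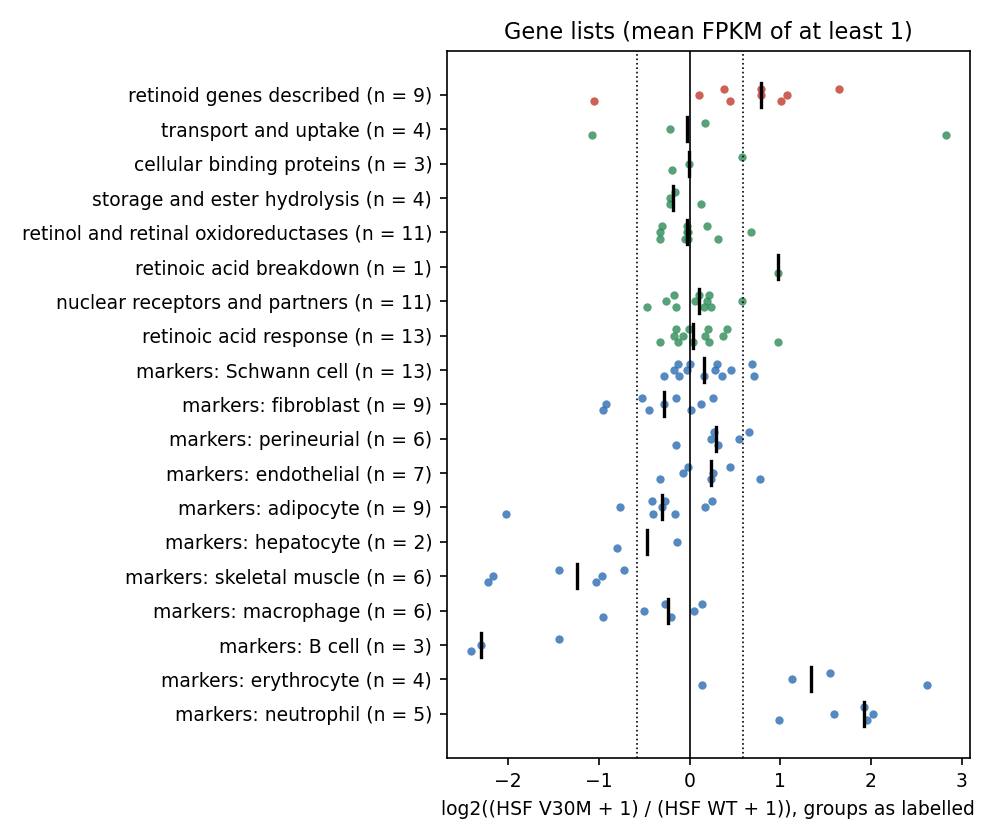
Log2 ratio of FPKM + 1 (HSF V30M over HSF WT, groups as labelled) of every gene whose mean FPKM reached 1 in the 9 retinoid genes (red), the further pathway and response lists (green) and the cell type markers (blue); black bars are medians, dotted lines the 1.5-fold limits, and n the number of genes. The median is 0.79 for the 9 genes, 0.03 for the response list, -1.24 for skeletal muscle and 1.93 for neutrophil markers.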

How the data were processed

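RNA of sciatic nerve was sequenced by the authors from Ion Torrent libraries. Per the labels, STAR, Cufflinks and Cuffdiff were used with GRCm38, and versions, options and annotation release are not given in the sources used here. The deposited table holds 1 FPKM value per gene and group, estimated by the authors over the libraries of the group, and those of HSF V30M are rounded to 2 decimals. The authors' own fold changes, test statistics, p-values and q-values were not used. The header line has fewer fields than the rows, so columns were read by number, with decimal commas replaced. Groups were matched to columns by the letters A and G of the sample titles.

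Each ratio is the log2 of FPKM + 1 in HSF V30M minus that in HSF WT. Called genes had a mean FPKM of at least 1 and a fold of at least 1.5 on this scale. The study's own rule names no added 1 and also required significance, which was not used here. Left out were 23 genes that Cuffdiff marks as having more alignments than it could use. Where a ratio without pseudocount is given, it is named. The worth of 1 fragment came from genes of 1 transcript that share their locus with no other gene, after subtracting 200 bases from the length. In HSF WT, 99.9% of 1011 low values lay within 2% of whole fragments. On simulated data from 8048 genes the worths were recovered within 0.244%. Fragment ranges use the complete protein-coding transcripts of GENCODE M21, which is not known to be the authors' annotation and holds 50369 of the gene identifiers. The 9 genes, the pathway and response lists and the markers were chosen with earlier results of these data known. Named are the 9 genes, every gene of the pathway and response lists past the fold, the RAR and RXR genes, markers past the fold where these are few, and the highest gene of each role; Rdh10, Tgm2, Rarres2, Ret and the genes under the minimum mean were added after values were seen. The gene Rbpr2 was matched as Stra6l. Scripts ran in Python 3.11.15 with scipy 1.17.1, numpy 2.4.6, Biopython 1.88, pandas 2.3.3 and matplotlib 3.10.9.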

Additional observations from a re-analysis of the deposited data

How the results depend on the processing

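No paired analysis was possible because each gene has a pooled estimate per group and none per mouse, so leaving out a mouse could not be run either. A changed pseudocount cannot turn a sign, and median-of-ratios scaling moved the median of all genes by only -0.003, so neither checks the signs. Of 36 alternative ratios of the 9 genes, these included, 35 kept their sign. The exception was Rarb, at 0.10 on the log2 scale of FPKM + 1 and -0.12 after scaling to equal sums without the 10 highest genes, which moved the median of all genes by -0.26. The number of the 9 genes past the fold was 6, and from 4 (that scaling, or a fold of 2) to 7 (pseudocount of 0.1 or none) under the alternatives. Under that scaling Aldh1a1 (0.50) and Rara (0.51) were no longer past the fold. The pathway count, Ttr included, was 4, with 7 under that scaling and 2 with a fold of 2. The response count was 1, with 2 under a pseudocount of 0.1, without one and under that scaling, and 0 with a fold of 2. Median-of-ratios scaling changed none of the 3 counts. Depth limits Crabp1 and Cyp26a1.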

Other observations

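Of the 52 further pathway genes, 18 were under the minimum mean. Rbpr2, listed as Stra6l, encodes a second RBP4 receptor and was at 0.360 in HSF V30M nerve against 1.36 in HSF WT nerve, about 27 to 35 fragments against 71 to 108, which is the direction of Rbp4 and not of Stra6. The counting interval of its log2 ratio without pseudocount ran from -2.61 to -1.26, and it was chosen after its values were seen. Lrat, which makes retinyl esters for storage, was at 0.430 and 0.909. The carotenoid cleaving enzymes Bco1 (0.190 and 0.134) and Bco2 (0.480 and 0.706) and the breakdown enzyme Cyp26c1 (0.190 and 0.230) were also low. Just inside the 1.5-fold limit of 0.58 on the log2 scale of FPKM + 1 were Ppard, at 0.58, and Rbp7, at 0.58, the latter a retinol binding protein with an FPKM of 4.61 in HSF V30M nerve against 2.77 in HSF WT nerve.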
